A study of Homo sapiens with 4 samples.

Results

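The S100 proteins and the annexins were followed as 10 genes, namely S100A4, S100A6, S100A8, S100A9, S100A10 and S100A12 of the S100 family and ANXA1, ANXA2, ANXA4 and ANXA5 of the annexin family. They were taken from the deposited table by gene symbol. All 10 were measured, each by 1 gene-level probe set, among 24241 named genes. The 4 arrays hold RNA of MOLM-14, an established cell line from human acute myeloid leukaemia with monocytic features. In 2 cultures the cells were first given 10 nM rapamycin, which blocks the mTORC1 kinase complex that drives growth, for 12 h, and then 30 µM GSK621, which switches on the energy-sensing kinase AMPK, for 6 h. The remaining 2 cultures had the same GSK621 treatment and no rapamycin. All 4 cultures thus received GSK621, and untreated cells and cells given rapamycin alone were not analysed here, so a direct effect of rapamycin and a changed response to GSK621 cannot be told apart. Each difference given is rapamycin then GSK621 minus GSK621 on the log2 scale.

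S100 proteins are small calcium-binding proteins that act as dimers, and most of their genes lie in a cluster on chromosome 1. S100A8 and S100A9 pair to form calprotectin, an abundant protein of neutrophils and monocytes that binds zinc and calcium and signals through TLR4 and AGER once released. Annexins bind acidic membrane phospholipids when calcium rises, and they act in membrane repair, vesicle traffic and the end of inflammation. S100A10 links the families, since it binds annexin A2 in a complex at the cell surface that captures plasminogen.

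The members with the largest differences whose arrays did not overlap were S100A8 and ANXA1, both lower after rapamycin and GSK621 than after GSK621 alone. S100A8 was 1.55-fold lower and ANXA1 1.72-fold lower, with both arrays below both of the other group (n = 2 per group). Neither passed the test over all genes (limma adjusted p = 0.413 for S100A8 and 0.430 for ANXA1). The calprotectin partner S100A9 and the annexins ANXA2 and ANXA5 had overlapping arrays, and so had S100A4 and S100A6.

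The promoter windows of S100A8, its partner S100A9 and ANXA1 are shown because 2 of them belong to the genes with these differences and the third to a gene that is paired with S100A8 as a protein. They come from RefSeq (GRCh38.p14), and each covers 250 bases before to 50 bases after the annotated start, written 5′ to 3′ on the strand of the gene. Capitals mark matches on either strand to TATAAA, to the C/EBP letters TTGCNNAA and to the PU.1 core GAGGAA. S100A8 has 3 such windows in RefSeq, and the one with TATAAA next to the start is shown. The windows are chr1:153391024-153391323 on the minus strand for S100A8, chr1:153357604-153357903 on the plus strand for S100A9 and chr9:73151615-73151914 on the plus strand for ANXA1.
S100A8: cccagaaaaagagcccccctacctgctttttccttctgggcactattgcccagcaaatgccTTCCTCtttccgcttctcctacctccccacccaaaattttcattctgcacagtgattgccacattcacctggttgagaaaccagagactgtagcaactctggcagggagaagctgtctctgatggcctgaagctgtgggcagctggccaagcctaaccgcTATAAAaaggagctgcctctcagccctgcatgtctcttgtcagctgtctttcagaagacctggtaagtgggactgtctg
S100A9: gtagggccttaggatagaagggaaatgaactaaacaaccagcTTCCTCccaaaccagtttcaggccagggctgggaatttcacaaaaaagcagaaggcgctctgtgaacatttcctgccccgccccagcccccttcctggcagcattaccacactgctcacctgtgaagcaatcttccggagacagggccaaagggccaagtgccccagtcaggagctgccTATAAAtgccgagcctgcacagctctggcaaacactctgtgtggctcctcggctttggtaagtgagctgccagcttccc
ANXA1: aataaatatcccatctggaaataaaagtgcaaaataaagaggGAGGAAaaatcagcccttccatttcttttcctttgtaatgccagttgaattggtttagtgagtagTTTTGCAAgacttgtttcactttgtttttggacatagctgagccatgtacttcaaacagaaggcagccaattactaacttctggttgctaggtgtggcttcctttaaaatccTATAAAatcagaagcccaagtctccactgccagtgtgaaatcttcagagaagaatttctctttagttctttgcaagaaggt

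The hexamer TATAAA, the core of the TATA box, begins 29 bases before the start in S100A8 and S100A9 and 31 bases before it in ANXA1. On the gene's own strand and beginning 20 to 40 bases before a start, it was found in 5 of the 10 members, namely S100A4, S100A8, S100A9, ANXA1 and ANXA2, against 2.92% of the 27305 genes with a window. The hexamer was present in members with and without overlapping arrays. GAGGAA was found anywhere in a window on either strand for 4 members, S100A8, S100A9, ANXA1 and ANXA4, against 31.8% of genes. TTGCNNAA was found for S100A12 and ANXA1, against 12.7% of genes. The AP-1 letters TGANTCA occurred for S100A12 and ANXA2, against 9.37% of genes, and the hypoxia response core ACGTG for S100A10 and ANXA4, against 24.9%. No match overlapped another in the 3 windows printed. These motifs were chosen with the expression values known, and a match describes the letters of the window alone.

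Calprotectin comes first among the members. S100A8 had log2 levels of 5.41 and 5.31 after rapamycin and GSK621, against 5.94 and 6.06 after GSK621 alone. The groups did not overlap, and the smallest gap between them was wider than the gap within either group. The difference was −0.63 ± 0.10 (SE), with a 95% interval of −0.89 to −0.37 and an unadjusted p of 0.00125 in limma across all genes.

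S100A9 had log2 levels of 5.29 and 4.87 after rapamycin and GSK621, against 5.09 and 5.50 after GSK621 alone. Replicate 1 was the higher array after rapamycin and replicate 2 after GSK621 alone, and the groups overlapped. The difference was −0.21 ± 0.20 (95% interval −0.72 to 0.29, limma adjusted p = 0.811). It came to −0.42 without replicate 1 of either group, to −0.01 without GSK621 replicate 2 and to −8.52e-04 without replicate 2 of rapamycin then GSK621. The interval of S100A9 holds both 0 and the difference seen for S100A8.

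Within each array, the log2 level of S100A8 minus that of S100A9 was 0.12 and 0.44 after rapamycin and GSK621, against 0.84 and 0.56 after GSK621 alone. The difference of these ratios was −0.42, at the smallest p that 2 against 2 arrays allow (exact permutation test, two-sided, p = 0.333, adjusted p = 1 over 3 ratios). It came to −0.26 without replicate 1 of rapamycin then GSK621 and to −0.28 without GSK621 replicate 1. Without replicate 2 it was −0.58 with the array after rapamycin left out and −0.56 with the GSK621 array left out.

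S100A12, a ligand of the receptor AGER whose gene lies between those of S100A9 and S100A8, had log2 levels of 3.93 and 4.12 after rapamycin and GSK621, against 4.32 and 4.17 after GSK621 alone. The groups did not overlap, but the replicate 2 arrays differed by only −0.04. Its difference was −0.21 ± 0.12 (limma adjusted p = 0.680), and −0.12 with replicate 1 of rapamycin then GSK621 left out and −0.14 with GSK621 replicate 1 left out.

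S100A10, the partner of annexin A2 that has lost calcium binding, had log2 levels of 10.09 and 10.27 after rapamycin and GSK621, against 10.49 and 10.33 after GSK621 alone. The groups did not overlap, and the replicate 2 arrays differed by −0.06. The difference was −0.23 ± 0.12 (95% interval −0.53 to 0.07, limma adjusted p = 0.658). It came to −0.14 without replicate 1 of rapamycin then GSK621 and to −0.15 without GSK621 replicate 1.

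S100A6, also called calcyclin, had log2 levels of 6.47 and 6.31 after rapamycin and GSK621, against 6.59 and 6.45 after GSK621 alone, with a difference of −0.13 ± 0.11 (limma adjusted p = 0.792). The arrays overlapped by a narrow margin. The difference of S100A6 came to −0.21 and −0.05 with replicate 1 or 2 after rapamycin left out, and to −0.06 and −0.19 with GSK621 replicate 1 or 2 left out. S100A4, which binds non-muscle myosin, had 3.84 and 3.34 against 3.54 and 3.49, a difference of 0.08 ± 0.18 (limma adjusted p = 0.935). It was the one member with a higher mean after rapamycin and GSK621, and the mean rested on replicate 1, without which the difference was −0.18.

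Among the annexins, ANXA1 encodes a glucocorticoid-induced protein that restrains phospholipase A2 and acts on the formyl peptide receptor FPR2. It had log2 levels of 7.38 and 7.34 after rapamycin and GSK621, against 8.32 and 7.97 after GSK621 alone. The arrays after rapamycin lay close together, those after GSK621 alone lay apart, and both of these were higher. The difference was −0.78 ± 0.14 (SE), with a 95% interval of −1.13 to −0.43 and an unadjusted p of 0.00197 in limma.

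ANXA4, an annexin that binds cell membranes, had log2 levels of 11.22 and 11.25 after rapamycin and GSK621, against 11.58 and 11.37 after GSK621 alone. The groups did not overlap, and the GSK621 arrays were again the more spread. The difference was −0.24 ± 0.11 (95% interval −0.52 to 0.04, limma adjusted p = 0.635), and −0.13 without GSK621 replicate 1.

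ANXA5, which binds phosphatidylserine and is used to stain dying cells, had log2 levels of 10.62 and 10.70 after rapamycin and GSK621, against 10.72 and 10.63 after GSK621 alone. The groups interleaved. Its difference was −0.02 ± 0.10, and the 95% interval of −0.27 to 0.23 does not reach the difference seen for ANXA1.

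**Figure D1:**
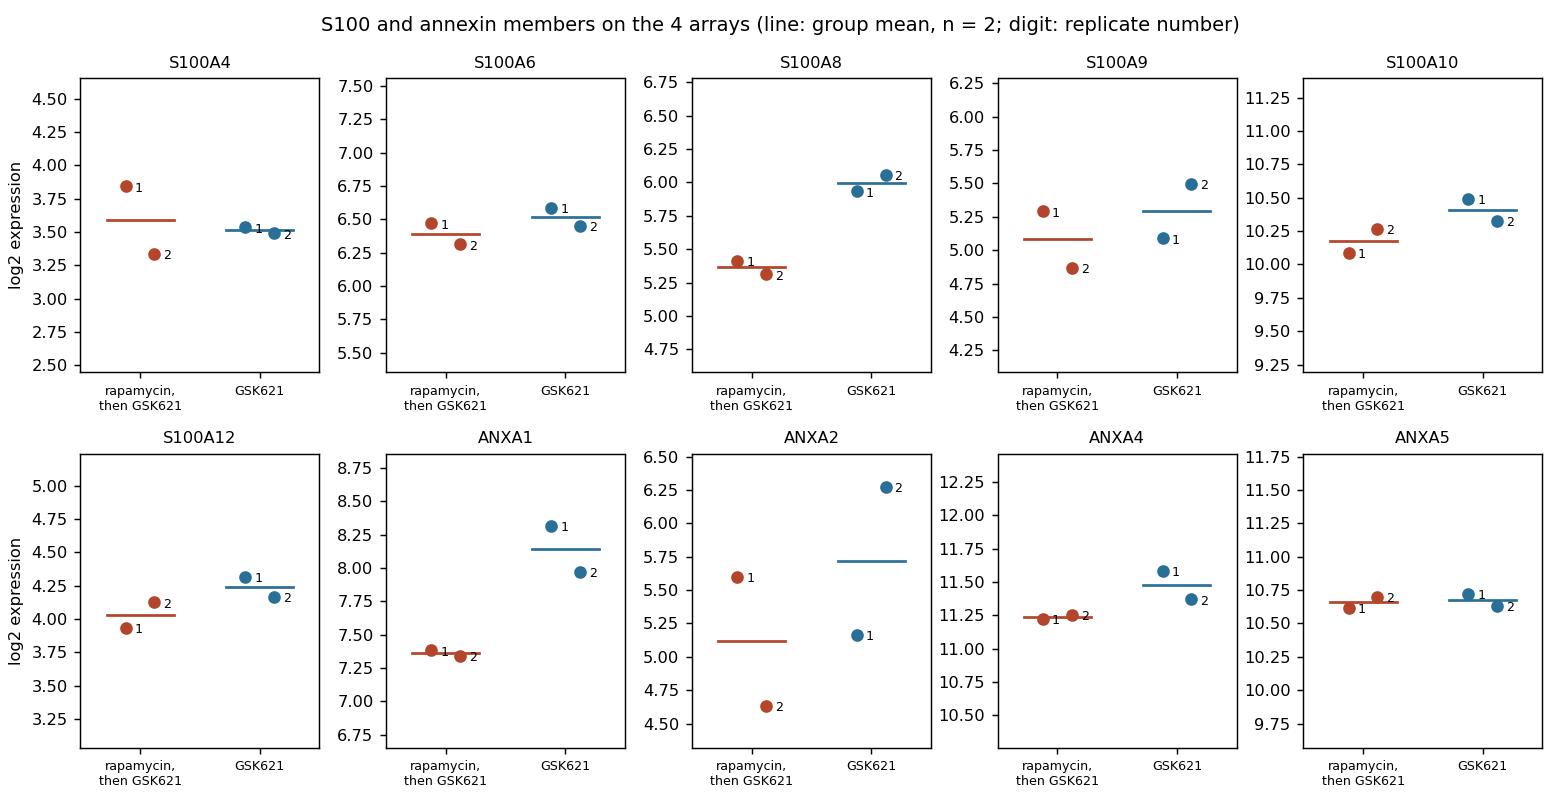
Log2 expression of each member (vertical axis, the same span in every panel) on the 2 arrays after rapamycin then GSK621 and the 2 after GSK621, with points for arrays, digits for replicate numbers and lines for group means. S100A8 and ANXA1 show the clearest separation, with S100A8 at 5.41 and 5.31 against 5.94 and 6.06, while the arrays of S100A9 and ANXA2 cross.

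ANXA2 encodes annexin A2, the membrane anchor of S100A10. Its probe set had log2 levels of 5.60 and 4.63 after rapamycin and GSK621, against 5.16 and 6.28 after GSK621 alone. Replicate 2 minus replicate 1 was −0.97 after rapamycin and GSK621 and 1.11 after GSK621 alone, and the within-group SD of 0.737 was at percentile 99.9 of all genes. The difference of −0.60 ± 0.46 (95% interval −1.75 to 0.55, limma adjusted p = 0.763) was within that spread, and it ran from −1.16 without GSK621 replicate 1 to −0.05 without GSK621 replicate 2.

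ANXA2 has near-identical processed pseudogenes that the array also lists, so a signal cannot be assigned to 1 copy with certainty. ANXA2P2 had log2 levels of 9.01 and 9.25 after rapamycin and GSK621, against 9.25 and 9.49 after GSK621 alone. Its within-group SD was 0.171, and its difference was −0.24 ± 0.14 (limma adjusted p = 0.693) with arrays that overlapped by a narrow margin. ANXA2P1 and ANXA2P3 had differences of 0.07 ± 0.13 and −0.34 ± 0.18, both with overlapping arrays. How much ANXA2 transcript each of these probe sets recorded was not tested.

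The within-array log2 ratio of S100A10 over ANXA2 was 4.49 and 5.64 after rapamycin and GSK621, against 5.33 and 4.05 after GSK621 alone, a difference of 0.37 (exact permutation test, two-sided, p = 0.667). It turned to −0.27 without GSK621 replicate 2 and to −0.20 without replicate 2 of rapamycin then GSK621. With ANXA2P2 in place of ANXA2 the ratio was 1.08 and 1.02 against 1.25 and 0.83, a difference of 0.0077 (exact permutation p = 1), which turned to −0.20 without GSK621 replicate 2 and to −0.02 without replicate 1 of rapamycin then GSK621. No direction can be given for either ratio.

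**Figure D2:**
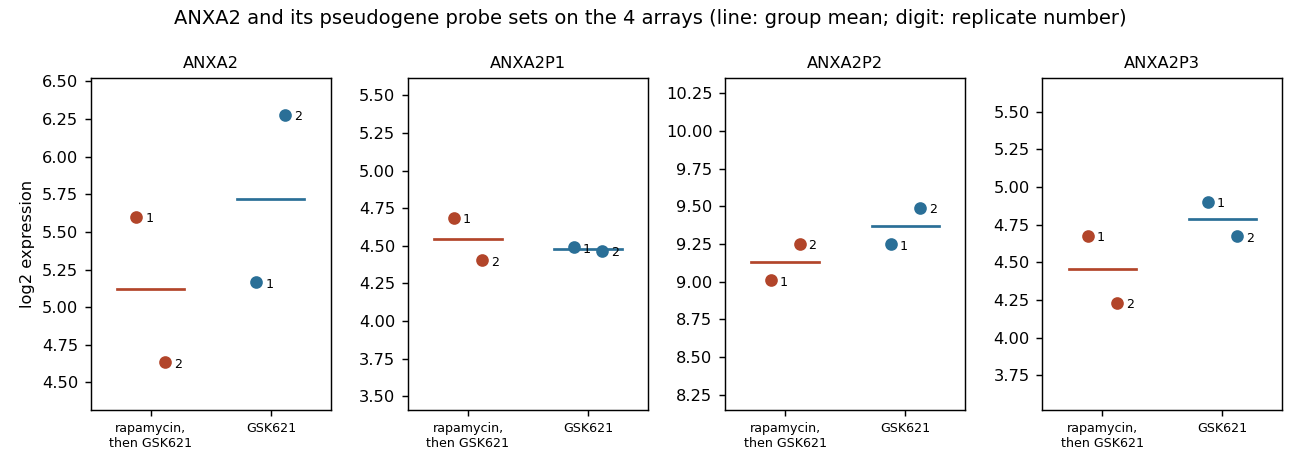
Log2 expression (vertical axis) of the probe sets of ANXA2 and its pseudogenes ANXA2P1, ANXA2P2 and ANXA2P3 on the 2 arrays of each group, with lines for group means and digits for replicate numbers. The ANXA2 arrays spread from 4.63 to 6.28, with a within-group SD of 0.737 against 0.171 for ANXA2P2.

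Brightness set how far a member could be read. As a background of genes taken to be mostly silent, which was not tested, 354 olfactory receptor genes had a median log2 level of 3.43 and a 95th percentile of 5.16. The olfactory receptor range here means levels up to that percentile. Mean levels of 3.55 for S100A4 and 4.14 for S100A12 fell below that percentile, so whether their signals stood above background is unknown. S100A9 at 5.19, ANXA2 at 5.42 and S100A8 at 5.68 lay just above it and below the brightest olfactory receptor gene at 7.43. S100A6 at 6.46 lay above 99.7% of the olfactory receptor genes. ANXA1 at 7.75 lay above all of the olfactory receptor genes, as did S100A10, ANXA5 and ANXA4, with mean levels between 10.29 and 11.36. Probe sets differ in how well they bind, so these positions do not rank the transcripts by abundance. Signals of the alarmin genes S100A8, S100A9 and S100A12 were near or within the olfactory receptor range in these GSK621-treated cultures. These genes are known for high expression in mature myeloid cells, which were not measured here.

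**Figure D3:**
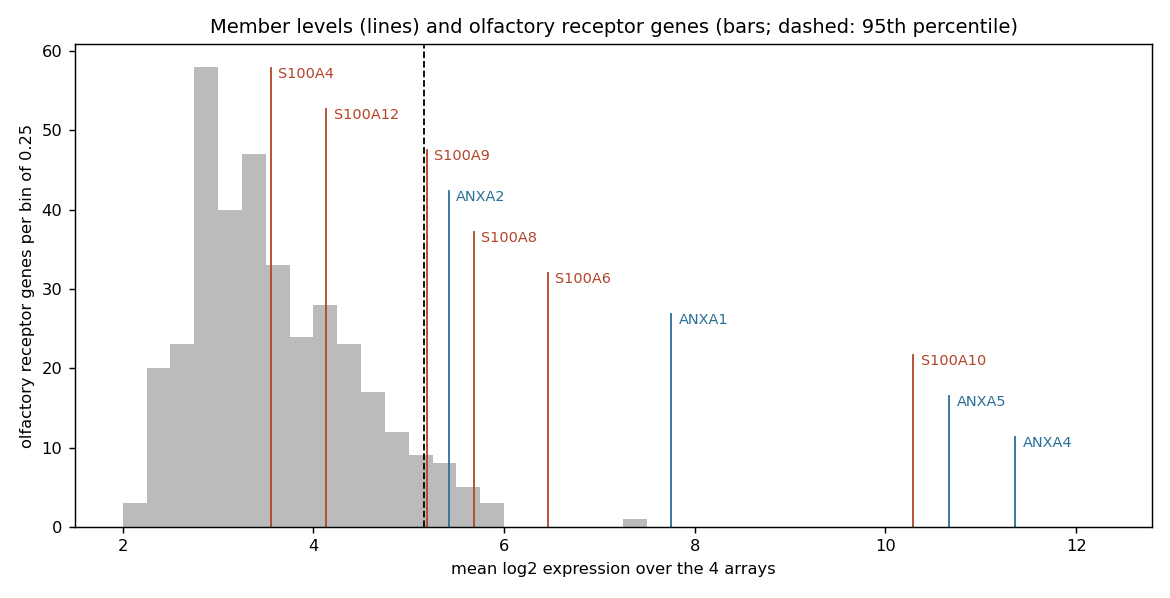
Mean log2 expression over the 4 arrays (horizontal axis) of the members, drawn as labelled lines whose heights carry no meaning, over a histogram of 354 olfactory receptor genes with their 95th percentile of 5.16 dashed. S100A4 and S100A12 lie below the dashed line and 4 members lie at 7.75 or above.

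Taken over the members, 9 of 10 had a lower mean after rapamycin and GSK621, with a median difference of −0.22 beside 0.0045 over all genes, of which 48.8% were lower. Arrays did not overlap for 5 members, all lower, where 18.9% of all genes were lower without overlap, 20.5% higher and 39.4% either. Without replicate 1 of rapamycin then GSK621 the arrays of 9 members did not overlap, and 34.4% of all genes were then lower without overlap. At an unadjusted p under 0.05 in limma there were 2 members, S100A8 and ANXA1, both lower, beside 4.20% of all genes in that direction, 4.31% in the other and 8.51% in either. At an adjusted p under 0.05 there were 0 members and 0.00% of all genes. With a variance trend and robust estimation in limma 74 genes and 0 members passed, and the smallest adjusted p of a member was then 0.0587 for ANXA1.

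The S100 members had a median difference of −0.21. The annexin members had −0.42, a value that leans on the variable ANXA2 probe set and was −0.24 without that gene. Without replicate 2 it was −0.20 with the GSK621 array left out and −0.19 with the array after rapamycin left out, against −0.51 without replicate 1 of rapamycin then GSK621. Members stood apart from each other in size, with S100A8, ANXA1 and ANXA2 in the top 1 percent of all genes by absolute difference and ANXA5 at percentile 10.5.

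**Figure D4:**
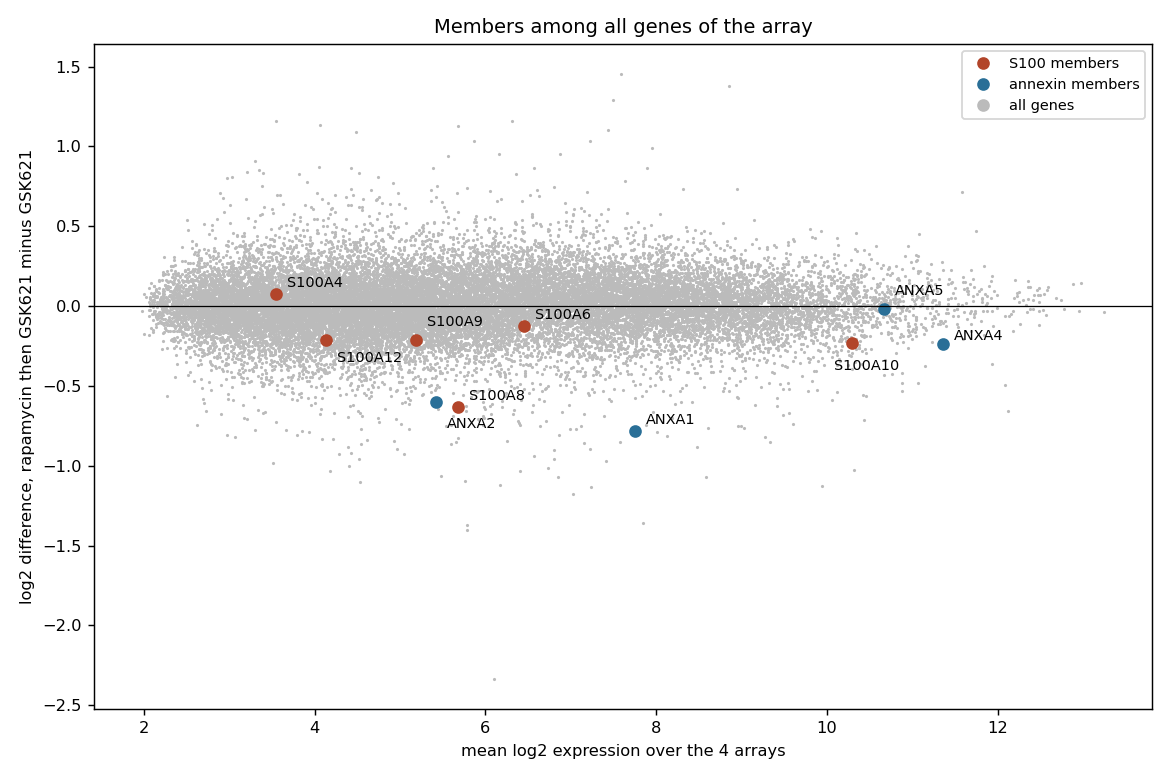
Log2 difference, rapamycin then GSK621 minus GSK621 (vertical axis), against mean log2 expression over the 4 arrays (horizontal axis) for all genes in grey, S100 members in red and annexin members in blue. ANXA1 at −0.78 and S100A8 at −0.63 lie below the bulk of genes, and the other members except ANXA2 lie inside it or at its edge.

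Beyond the 10 members, the rest of the S100 family held 16 measured entries, S100PBP, which encodes a binding protein of S100P, among them. In limma 0 of these passed an adjusted p under 0.05 and 1, S100P, an unadjusted p under 0.05, and 11 had lower and 5 higher means, with a median difference of −0.12. S100P had log2 levels of 6.32 and 6.16 after rapamycin and GSK621, against 6.55 and 7.03 after GSK621 alone, a difference of −0.55 ± 0.18 (limma adjusted p = 0.564). S100A11, the neighbour of S100A10 on chromosome 1, had 8.19 and 7.94 against 8.29 and 8.33, a difference of −0.24 ± 0.12 (limma adjusted p = 0.649). Neither gene's arrays overlapped between groups. Of the 16 entries 3 were lower and 0 higher without overlap, and 13 overlapped. Over all genes 18.9% were lower and 20.5% higher without overlap, and 8.51% had an unadjusted p under 0.05 in limma. S100A7L2 (−0.18 ± 0.12) and S100G (−0.12 ± 0.10) lay within the olfactory receptor range, as did 9 of the 16 entries. Within the chromosome 1 cluster, S100A5, between S100A6 and S100A4, had −0.07 ± 0.16 at a level within the olfactory receptor range. S100A1, at an end of the cluster, had 0.15 ± 0.12. Their 95% intervals (−0.47 to 0.32 and −0.16 to 0.46) overlapped and both held 0, so these values cannot show whether the genes differed.

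Of 9 other annexin genes listed, 8 were measured and 0 passed in limma (2 at an unadjusted p under 0.05, ANXA6 and ANXA3), with 4 lower and 4 higher means and a median difference of 0.0074. ANXA6, the annexin with a duplicated core, had log2 levels of 8.50 and 8.64 after rapamycin and GSK621, against 8.99 and 9.11 after GSK621 alone. Its arrays did not overlap, and the difference was −0.48 ± 0.11 (limma adjusted p = 0.446). ANXA3 had 3.01 and 2.90 against 3.30 and 3.39, a difference of −0.39 ± 0.10 at a level below the olfactory receptor median (limma adjusted p = 0.519). ANXA8 (−0.42 ± 0.33) varied widely between arrays, and ANXA13 had 0.09 ± 0.10. Of the 8 measured genes 2 were lower and 1 higher without overlap, and 5 overlapped. Over all genes 39.4% did not overlap and 8.51% had an unadjusted p under 0.05 in limma.

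**Figure D5:**
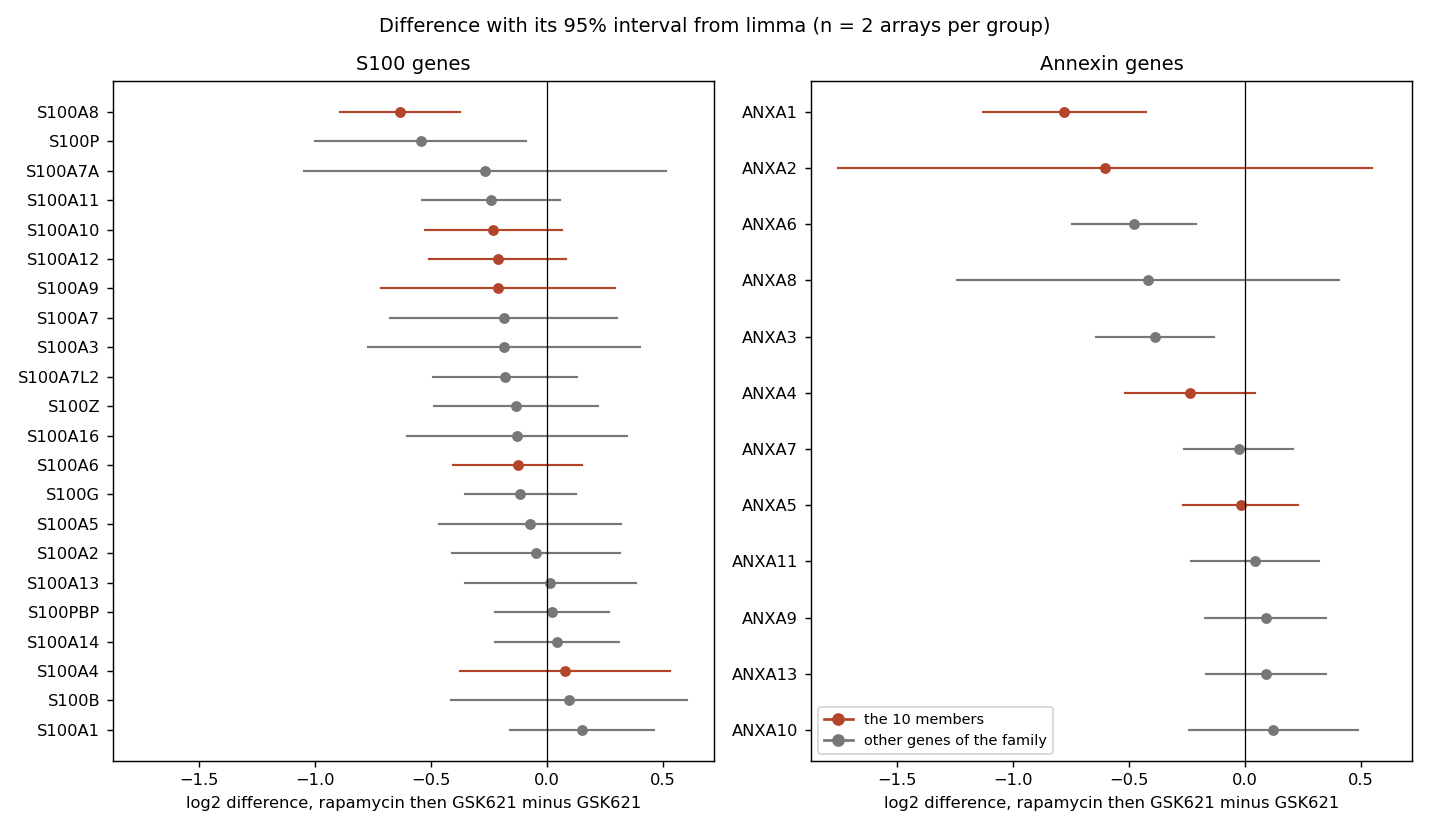
Log2 difference, rapamycin then GSK621 minus GSK621 (horizontal axis), with its 95% interval from limma, for all measured S100 genes (left) and annexin genes (right), with the 10 members in red and other family genes in grey. The intervals of S100A8, S100P, ANXA1, ANXA6 and ANXA3 lie below 0 before adjustment for the number of genes, and those of ANXA2 and S100A9 are among the wide ones.

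Receptors and binding partners of these proteins were read from a list of 27 genes, of which 26 were measured and 0 passed in limma. At an unadjusted p under 0.05 in limma there was 1, PLAUR, beside 8.51% of all genes. Means were higher for 13 and lower for 13, with a median difference of 0.0048. The urokinase receptor PLAUR had 0.30 ± 0.11, urokinase PLAU 0.24 ± 0.10 and tissue plasminogen activator PLAT 0.27 ± 0.14, each higher without overlap though PLAT lay within the olfactory receptor range, and ENO1, a glycolytic enzyme that also binds plasminogen, had −0.21 ± 0.10. These were the 4 smallest p of the list, and their limma adjusted p ran from 0.584 for PLAUR to 0.658 for PLAT. Plasminogen itself, PLG, had −0.24 ± 0.16 at a level within the olfactory receptor range, and its receptor PLGRKT had −0.15 ± 0.11. Both were lower without overlap, but the replicate 1 arrays of PLG differed by only −0.0063 and the replicate 2 arrays of PLGRKT by −0.0095. In the whole list 8 genes were higher and 9 lower without overlap, where all genes gave 20.5% and 18.9%. The formyl peptide receptors FPR1, FPR2 and FPR3, through which annexin A1 acts, and TLR4 with its co-receptor LY96 lay within the olfactory receptor range, and AGER (6.08) lay above it.

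Transcription factors described as regulators of S100A8, S100A9 or ANXA1 were all measured, 16 genes, of which 0 passed in limma (3 at an unadjusted p under 0.05, HIF1A, CEBPD and KLF6), with 11 lower and 5 higher means and a median difference of −0.05. HIF1A, an oxygen-regulated factor, had log2 levels of 9.67 and 9.70 after rapamycin and GSK621, against 9.99 and 10.02 after GSK621 alone, a difference of −0.32 ± 0.09. CEBPD, a C/EBP factor of myeloid cells, had 0.34 ± 0.11, KLF6 had −0.32 ± 0.12 and the AP-1 subunit JUN had −0.37 ± 0.16. These 4 genes had the smallest p of the list. Their arrays did not overlap, and their limma adjusted p ran from 0.543 for HIF1A to 0.604 for JUN. In the whole list 3 genes were higher and 5 lower without overlap, and 8 overlapped. Over all genes 39.4% did not overlap and 8.51% had an unadjusted p under 0.05 in limma.

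Phospholipase A2 genes and lipid mediator genes together numbered 12 measured of 13, of which 0 passed in limma. At an unadjusted p under 0.05 there were 2, TBXAS1 and LTA4H, beside 8.51% of all genes. Means were higher for 6 and lower for 6, with a median difference of −0.0044. Thromboxane synthase TBXAS1 had 0.32 ± 0.10 and leukotriene A4 hydrolase LTA4H 0.33 ± 0.11, while ALOX5AP, which presents substrate to 5-lipoxygenase, had −0.22 ± 0.10 and cyclooxygenase PTGS2 −0.22 ± 0.13. Genes of membrane repair and calcium sensing numbered 9 measured of 13, with 0 past the threshold in limma (also 0 at an unadjusted p under 0.05), a median of 0.0064 and differences between −0.11 and 0.10. PDCD6 (0.10 ± 0.09), SRI (0.10 ± 0.10), TRIM72 (−0.11 ± 0.11) and CAPN2 (−0.09 ± 0.09) had the smallest p of that list.

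Of the genes whose 4 array values, centred on the gene's mean, were closest to those of S100A8, ATF5 had a root mean square distance of 0.0238 and CDC20 one of 0.0431. RNFT1-DT (0.0286) and IGLV3-27 (0.029) were dim, and the remaining one of the nearest 5 is not reported here. Closest to ANXA1 were ADM (0.037), CCNG2 (0.0405), SLC2A1 (0.0449), ZNF436 (0.0478) and FCN2 (0.0538). FCN2 was dim as well, with log2 levels between 3.75 and 4.86. Likeness over 4 arrays describes the shape of the values, and genes were chosen by it from 24241.

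Array medians lay between 5.37 and 5.43, and correlations between arrays over all probe sets were 0.993 to 0.994. The leukaemia line's markers FLT3 (mean log2 level 10.36), LYZ (11.73), CD4 (9.84), MEIS1 (9.14) and CEBPA (9.42) were bright. Of 10 measured markers 9 lay above the 95th percentile of the olfactory receptor genes, CD14 at 3.69 being the exception. MPO, ITGAM, CSF1R and SPI1 lay above that percentile but below the brightest olfactory receptor gene at 7.43. The summed log2 level of the 10 markers was 81.3 to 82.4 after rapamycin and GSK621, against 81.0 to 81.5 after GSK621 alone. Of the markers of other cells, 1 of 5 for T cells, 3 of 4 for B cells, 1 of 4 for erythroid cells, 3 of 5 for epithelial cells and 1 of 5 for fibroblasts lay above that percentile. The summed levels of each of these lists overlapped between groups. In bulk RNA of this kind, fewer expressing cells and less RNA per cell cannot be told apart.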

How the data were processed

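The table deposited by the authors holds log2 expression with a single value for each gene-level probe set on each array, used here as deposited with no filter, further normalization or pseudocount. Per the submitters' processing notes, the tools were R 2.15.3 and Partek, with no role given. Background correction, normalization and log base are not given in the sources used here, and log2 was read from the range of the values (1.84 to 13.28). Groups and replicate numbers came from the titles, and the labels call the cultures biological replicates (n = 2 per group). With so few arrays the precision is limited, and the median SE of a difference was 0.113. Of 25582 probe sets, 24244 had 1 symbol, 0 had several and 1338 had none, and the brightest stood for a gene with more than 1. Differences were tested two-sided in limma 3.58.1 (lmFit, eBayes; R 4.3.3), adjusted by Benjamini-Hochberg over 24241 genes, at a threshold of 0.05, and the fit was tested on simulated data. Ratios were compared by exact permutation, where 2 against 2 arrays give no p below 0.333. The rule for names takes all 10 members, the 4 smallest p of each of 6 lists and the 5 genes most like the member with the largest difference of each family. The pseudogenes, S100A5, S100A1, S100PBP, PLG, PLGRKT, the dim receptors, AGER and the cell markers were picked once their values had been seen. The members, lists and motifs were chosen with earlier results of these data known.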

Additional observations from a re-analysis of the deposited data

How the results depend on the processing

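With any 1 of the 2 arrays of a group left out, the difference ran from −0.69 to −0.57 for S100A8 and from −0.95 to −0.61 for ANXA1. Their direction could not turn, since their groups did not overlap. Of the members with overlapping arrays, S100A6, S100A9 and ANXA2 kept their direction as well, while S100A4 and ANXA5 turned. With all 4 arrays, 0 members passed an adjusted p under 0.05 in any setting. Leaving out 1 array moved S100A4 between −0.18 and 0.33, S100A9 between −0.42 and −8.52e-04, ANXA5 between −0.0648 and 0.0246, and the annexin median between −0.51 and −0.19. The ratio of S100A10 over ANXA2 ran from −0.27 to 1.01 and that over ANXA2P2, chosen after seeing the data, from −0.20 to 0.21. Members without overlap then numbered 7 to 9, since fewer arrays overlap less by construction (68.7% to 70.7% of all genes). With all arrays centred on their medians they numbered 6, all lower, where 38.0% of all genes did not overlap and 18.0% were lower without overlap. All genes past the threshold numbered 3 among genes above the median level (which hold 7 members), 74 with a variance trend and robust estimation, and 1 with no moderation. The causes were not tested. Centring, quantile normalization, averaged probe sets and an adjusted p under 0.1 turned no direction and gave 0 genes. The labels give no batch or day shared by a replicate number, and same-numbered arrays deviated together weakly (r = 0.0923 across genes). With the replicate number as a block 0 genes passed, and the adjusted p was 0.513 for both S100A8 and ANXA1.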

Other observations

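ANXA8 had the same value, 5.77, on the replicate 1 arrays of both groups, and 4.75 and 5.59 on the replicate 2 arrays of rapamycin then GSK621 and of GSK621. Between 16 and 26 of the 25582 probe sets were identical in any pair of arrays, so such ties were rare and were spread over all pairs. PAX5, a B cell factor, had a mean log2 level of 8.40 in these cells, with a difference of −0.02 between the groups.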
